A study of Mus musculus with 87 samples.

Results

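The question is what the loss of Jarid2 adds in mouse embryonic stem cells that have already lost the 3 Polycomb-like proteins. Read counts of 3 Pcl1-3 + Jarid2 KO libraries were set against those of 3 Pcl1-3 KO libraries, 6 of the 24 RNA libraries among the 87 samples of the series. The 6 libraries were chosen by their labelled genotype. Polycomb repressive complex 2 (PRC2) places the repressive H3K27me3 mark at developmental genes. As background, one form of the complex carries a Polycomb-like protein (PCL1, PCL2 or PCL3, encoded by Phf1, Mtf2 and Phf19), and EPOP can join that form. Another form carries JARID2, a member of the Jumonji family without demethylase activity, together with AEBP2, and both forms share the core subunit SUZ12. Cells without Pcl1-3 therefore keep the JARID2 form, and cells without Pcl1-3 and Jarid2 lack the distinguishing subunits of one form and JARID2 of the other.

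Cells of every genotype grew on gelatin in 2i medium, and libraries were made from total RNA with a TruSeq kit. Besides the Pcl1-3 + Jarid2 KO and Pcl1-3 KO cells, 6 other genotypes with 3 libraries each were used for comparison. These were Pcl1-3 + Jarid2 + Aebp2 KO, Pcl1-3 + Jarid2 + Aebp2 + Epop KO, Pcl1-3 + Epop KO, Jarid2 + Aebp2 KO, Suz12 KO and wild type (WT). Nothing in the labels tells whether a genotype is 1 clone or whether its 3 libraries are separate cultures. All p-values here therefore speak of spread from library to library, part or all of which may be technical. The strain label reads 129B6F6 for Pcl1-3 + Jarid2 KO and 129B6F3 for Pcl1-3 KO, and it differs for each genotype. Its last digit rises from genotype to genotype in the order of the samples. Whether it names separate strains cannot be read from it. As labelled, strain and genotype cannot be told apart.

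Total counts ran from 12177793 to 14795973 in the Pcl1-3 + Jarid2 KO libraries and from 11302766 to 28442061 in the Pcl1-3 KO libraries, where replicate 3 was the deepest of the 24. An average of 12413 ± 99.9 IDs reached 1 CPM (counts scaled to library size) in Pcl1-3 + Jarid2 KO, and 12322 ± 58.1 in Pcl1-3 KO (SD, n = 3 each). Of 55450 Ensembl gene IDs in the count files, 14650 had enough counts to be tested. The sources used here do not pair these IDs with symbols, so IDs are given as deposited, no symbol was guessed, and neither the 4 targeted genes nor stem cell markers could be looked up. No gene lists, genome positions or sequences could be attached to the RNA results for the same reason.

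After Jarid2 loss in Pcl1-3 KO cells more IDs were raised than lowered, with larger median changes. In Pcl1-3 + Jarid2 KO 543 IDs rose (3.71% of those tested) and 375 fell (2.56%), 918 in all (6.27%; edgeR quasi-likelihood test, Benjamini-Hochberg adjusted p under 0.05). At an unadjusted p under 0.05 the numbers were closer, 1449 raised and 1346 lowered (edgeR quasi-likelihood test). The median log2 fold change was 1.19 among raised IDs and −0.87 among lowered ones, against −0.00 over all tested IDs. The median standard error was 0.246 among raised IDs and 0.203 among lowered ones, and IDs with larger errors needed larger changes to be called. Of the raised IDs, 319 passed 2-fold, 133 passed 4-fold and 49 passed 8-fold. Of the lowered IDs, 161 passed 2-fold, 35 passed 4-fold and 8 passed 8-fold. The number of raised IDs past 2-fold was 184 when Pcl1-3 + Jarid2 KO replicate 3 was left out and 488 in a fit blocked by replicate number. That of lowered IDs was 88 and 82 when Pcl1-3 + Jarid2 KO replicate 2 or 3 was left out, 95 when Pcl1-3 KO replicate 1 was, 264 in the blocked fit and 275 when low counts were not filtered. The middle part of the raised IDs, from the lower to the upper quartile, spanned log2 fold changes of 0.70 to 1.99, and that of the lowered IDs −0.54 to −1.48. The typical raised ID was a low to moderate transcript, with a median level of 16.6 CPM in Pcl1-3 + Jarid2 KO and 6.66 CPM in Pcl1-3 KO. The typical lowered ID had 10.1 CPM in Pcl1-3 + Jarid2 KO and 20.4 CPM in Pcl1-3 KO. Only 37 raised and 9 lowered IDs stayed under 1 CPM in both genotypes, while 90 raised and 66 lowered IDs had at least 50 CPM in both.

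**Figure D1:**
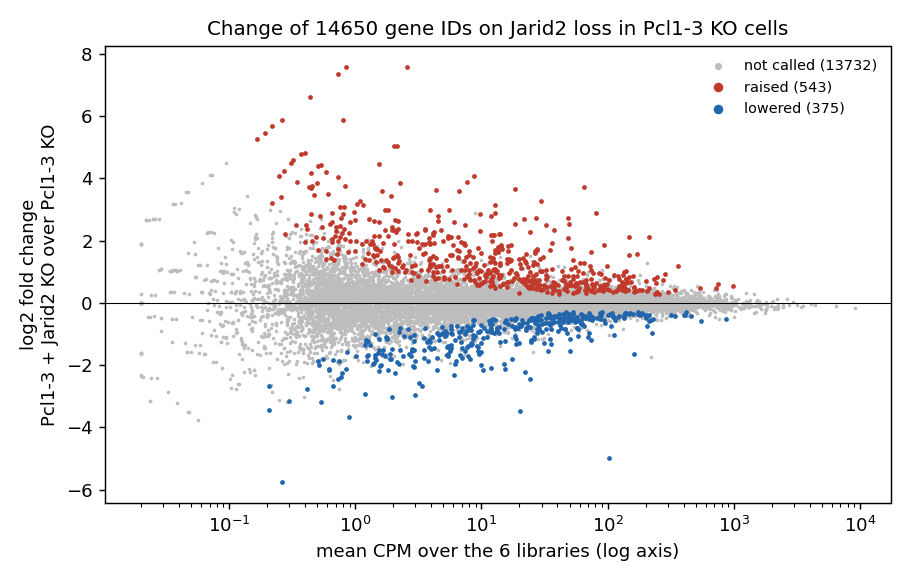
Each point is 1 of 14650 IDs, by its mean CPM over the 6 libraries (log axis, values under 0.02 drawn at 0.02) and its log2 fold change of Pcl1-3 + Jarid2 KO over Pcl1-3 KO, with called IDs in colour. The 543 raised IDs reach larger changes than the 375 lowered ones, and most called changes at high CPM are small.

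The libraries of the 2 genotypes were separated for nearly every called ID. For 539 of the 543 raised IDs the 3 Pcl1-3 + Jarid2 KO libraries all lay above the 3 Pcl1-3 KO libraries, and for 371 of the 375 lowered IDs they all lay below. Among all tested IDs, 13.1% were separated upward and 12.9% downward. Summed over the raised IDs, expression was 25370, 27355 and 28104 CPM in the Pcl1-3 + Jarid2 KO libraries, against 14856, 16758 and 15978 CPM in the Pcl1-3 KO libraries. Summed over the lowered IDs it was 13978, 12952 and 12501 CPM in Pcl1-3 + Jarid2 KO, against 20945, 18705 and 19779 CPM in Pcl1-3 KO. The same libraries selected these IDs, which favours both the separation and the distance between the sums. No sum overlapped between the genotypes.

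The number of calls depended on single libraries and on the replicate numbers. Without Pcl1-3 + Jarid2 KO replicate 2 or 3 the total was 511 or 414, and without Pcl1-3 KO replicate 1 or 3 it was 465 or 576. Libraries with the same number in both genotypes deviated together. A fit with the number as a block called 1079 IDs raised and 870 lowered, among them all 918 called without it. DESeq2 called 98.7% of the 918, a fit with no filter on low counts 80.5% and a fit of only the 2 genotypes 67.4%. Without Pcl1-3 + Jarid2 KO replicate 3 the share still called was 44.7%, and without Pcl1-3 KO replicate 1 it was 49%. The other 18 libraries share the filter and the estimate of spread with these 6, and leaving out 1 of them gave 827 to 1129 calls. No called ID changed direction in any of the 28 other settings in which it was tested. Of the 918 IDs, 47 were not tested in the fits of only the 2 genotypes compared, and 14 not under the stricter filter.

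The largest fitted rise by the rule for named IDs was that of ENSMUSG00000058328.13. It had 22, 11 and 39 counts (1.58, 0.913 and 2.59 CPM) in the 3 Pcl1-3 + Jarid2 KO libraries and 0 counts in each Pcl1-3 KO library. Set against 3 counts over the Pcl1-3 KO group, a floor that covers counting error only, its level was 30.2-fold higher (edgeR adjusted p = 1.52e-05). The exact two-sided 95% counting interval of the ratio began lower, at 24.8. Its mean of 1.70 ± 0.84 CPM in Pcl1-3 + Jarid2 KO still stood below the 2.81 ± 0.24 CPM of WT (SD, n = 3 each), with ranges that did not overlap. In Suz12 KO it had 9.82 ± 1.22 CPM and in Jarid2 + Aebp2 KO 11.7 ± 1.25 CPM, the highest levels among the 8 genotypes and with overlapping ranges. The 3 other genotypes without Pcl1-3 followed the same split only in part: 1.89 ± 0.47 CPM in Pcl1-3 + Jarid2 + Aebp2 + Epop KO, 0.131 ± 0.125 in Pcl1-3 + Jarid2 + Aebp2 KO and 0.078 ± 0.079 in Pcl1-3 + Epop KO.

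ENSMUSG00000001670.13 rose next most. Its levels were 1.22, 5.31 and 8.90 CPM in the Pcl1-3 + Jarid2 KO libraries, a wide spread, and it had a single count in Pcl1-3 KO, in replicate 3. The ratio of 215 counts to 1, scaled for depth, was 280 (exact 95% counting interval 49.8 to 11120; edgeR adjusted p = 0.000628). Suz12 KO libraries had 0 to 0.960 CPM and WT libraries 0.292 to 0.892 CPM, and all of these lay below the lowest Pcl1-3 + Jarid2 KO library. The mean was 1.71 ± 1.56 CPM in Pcl1-3 + Jarid2 + Aebp2 KO and 1.68 ± 0.57 CPM in Pcl1-3 + Jarid2 + Aebp2 + Epop KO, but 0.162 ± 0.140 CPM in Jarid2 + Aebp2 KO and 0.0573 ± 0.0993 CPM in Pcl1-3 + Epop KO (SD, n = 3 each).

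The largest fall by the rule for named IDs was that of ENSMUSG00000038518.15, an abundant transcript. It had 5.83, 6.31 and 6.84 CPM in the Pcl1-3 + Jarid2 KO libraries, against 189, 230 and 182 CPM in the Pcl1-3 KO libraries. The log2 fold change was −4.98 ± 0.21 (SE; edgeR adjusted p = 1.70e-12), with the groups far apart. Its level followed the labelled Jarid2 genotype in all 24 libraries. The 12 libraries without Jarid2 lay between 4.07 and 11.7 CPM and the 12 libraries with Jarid2 between 139 and 291 CPM. Whether this ID is one of the targeted genes cannot be read from the sources used here.

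ENSMUSG00000104340.1 fell to 0.144, 0.083 and 0.133 CPM (5 counts in all) in Pcl1-3 + Jarid2 KO, against 0.885, 3.04 and 1.10 CPM (83 counts) in Pcl1-3 KO. The log2 fold change was −3.67 ± 0.65 (SE; edgeR adjusted p = 0.00117). Jarid2 + Aebp2 KO had 3.95 ± 0.48 CPM and WT the highest mean, 5.12 ± 1.70 CPM, with overlapping ranges (SD, n = 3 each). Suz12 KO had 1.03 ± 0.23 CPM and Pcl1-3 + Epop KO 1.23 ± 0.64 CPM, which overlapped as well. The ID was lowest, at means of 0.0840 to 0.123 CPM, in the 3 genotypes that lack both Pcl1-3 and Jarid2.

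**Figure D2:**
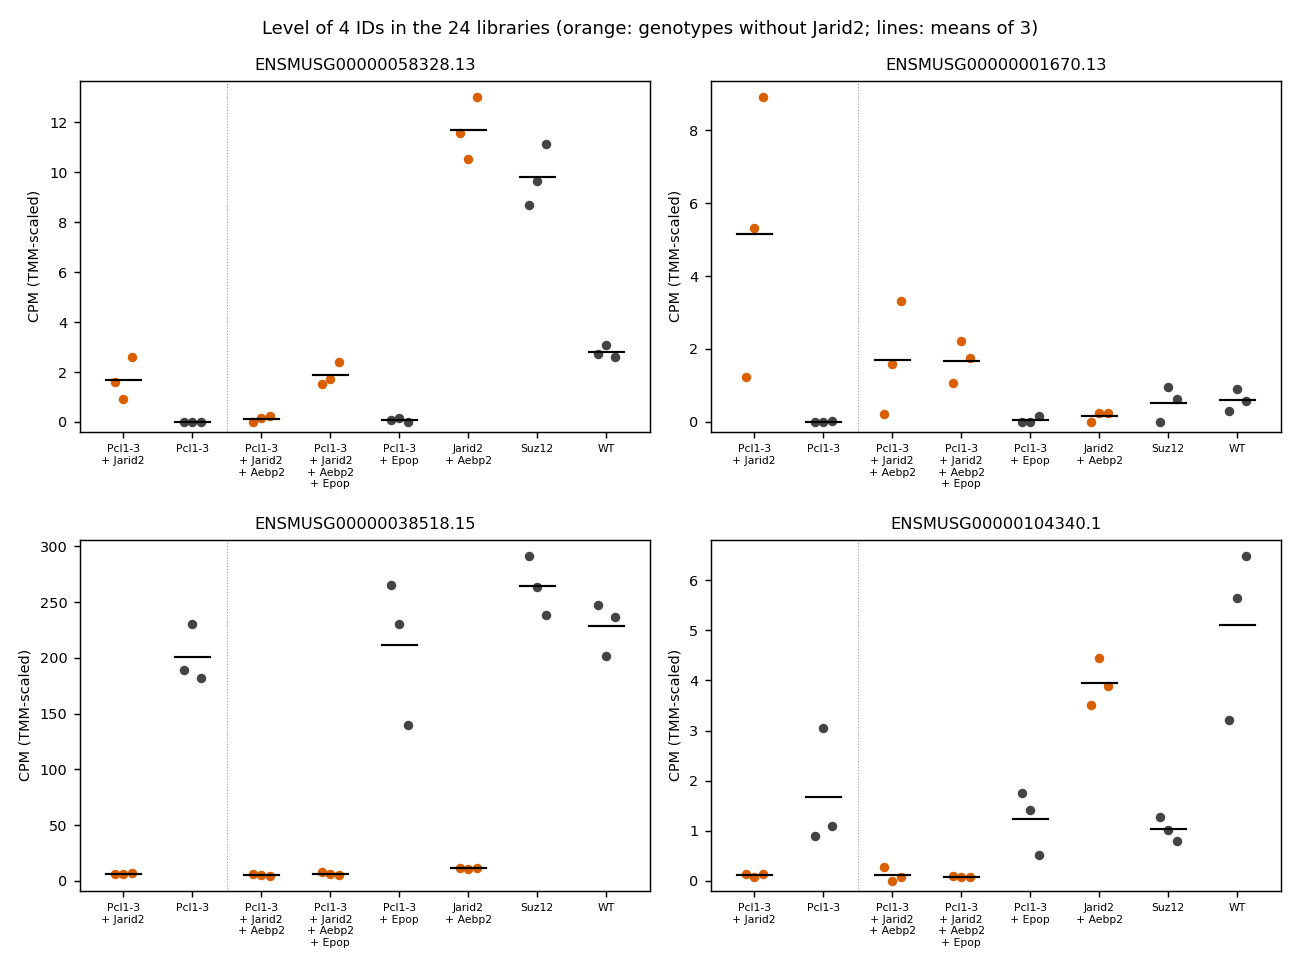
TMM-scaled CPM of 4 IDs in each of the 24 libraries, by genotype, with orange points for genotypes without Jarid2 and a line at the mean of 3 libraries. ENSMUSG00000038518.15 separates the 12 orange libraries from the 12 others, while the other 3 IDs also differ among genotypes with the same Jarid2 label.

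Few IDs behaved like ENSMUSG00000038518.15. Over all 24 libraries, 10 of the 14650 tested IDs were higher and 10 were lower in every library without Jarid2 than in every library with it. Of these, 5 and 7 were among the 543 raised and 375 lowered IDs. The 24 libraries include those that made the calls, which favours such an overlap. Leaving out the 2 genotypes compared, 20 IDs were higher and 17 lower in all 9 libraries without Jarid2 than in all 9 libraries with it. Of these, 6 were among the raised and 7 among the lowered IDs, beside 3.71% and 2.56% of all tested IDs. Most of the 918 called IDs thus did not follow the Jarid2 label across every background. Such a separation was rare among all tested IDs, so its absence is not particular to the called ones.

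Switches between near silence and expression were rare. A mean of at least 2 CPM in Pcl1-3 + Jarid2 KO and under 0.5 CPM in Pcl1-3 KO, with no overlap between libraries, was found for 15 IDs, 14 of them among the raised IDs, out of 1199 tested IDs under 0.5 CPM in Pcl1-3 KO. The opposite was found for 2 IDs, both called. Of the 15 IDs 3 were also under 0.5 CPM in WT, 10 rose in Suz12 KO against WT, where 20.7% of all tested IDs rose, and 10 rose in Pcl1-3 + Jarid2 + Aebp2 + Epop KO against Pcl1-3 + Epop KO, where 13.0% of all tested IDs rose. An ID near silence in one genotype enters the test through others, so these numbers do not stand for all silent genes. Tested IDs low in WT rose in Suz12 KO more often than 20.7%. Those that rose were 716 of 1172 under 0.5 CPM in WT and 1041 of 3431 between 0.5 and 5 CPM. The share among the 1199 is not given here.

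Sorting by the level in WT, which enters neither side of the comparison, showed how the calls were spread over expression levels. Of 1172 tested IDs under 0.5 CPM in WT, 51 rose (4.35%) and 8 fell (0.683%), all of them past 2-fold. IDs this low in WT needed higher counts in other genotypes to be tested, and 716 of them rose in Suz12 KO. Those genotypes may include Pcl1-3 + Jarid2 KO, which can favour rises over falls in this class. Between 0.5 and 5 CPM 174 of 3431 rose (5.07%) and 73 fell (2.13%). Between 5 and 50 CPM 226 of 5583 rose (4.05%) and 191 fell (3.42%). At 50 CPM or more 92 of 4464 rose (2.06%) and 103 fell (2.31%), of which 8 and 10 passed 2-fold. The median standard error of the log2 fold change was 0.65 in the lowest class and 0.13 in the highest, so low IDs needed larger changes to be called. With the replicate block the shares rising from the lowest to the highest class were 8.87%, 9.21%, 7.74% and 5.09%, and those falling 1.45%, 4.63%, 7.83% and 5.76%.

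Each class was then divided by the call in Suz12 KO against WT, 2 genotypes that are on neither side of the comparison. In all, 20.7% of tested IDs rose and 18.3% fell in Suz12 KO, 39.1% together. Among IDs of 0.5 to 5 CPM in WT, 117 of the 1041 that rose in Suz12 KO also rose here (11.2%), against 51 of the 2104 not called in Suz12 KO (2.42%). Between 5 and 50 CPM the shares were 10.2% of 1013 and 2.75% of 3492, and at 50 CPM or more 9.70% of 268 and 1.73% of 2883. Under 0.5 CPM the gap was smaller, 5.31% of 716 against 2.89% of 450. Of IDs that fell in Suz12 KO, the share lowered here was 3.50% between 0.5 and 5 CPM, 5.66% between 5 and 50 CPM and 3.58% at 50 CPM or more, against 1.52%, 2.46% and 1.84% of IDs not called in Suz12 KO. The same shares were 2.98%, 4.34% and 1.12% for IDs that rose in Suz12 KO. All of these shares are descriptions, and no difference between them was tested.

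**Figure D3:**
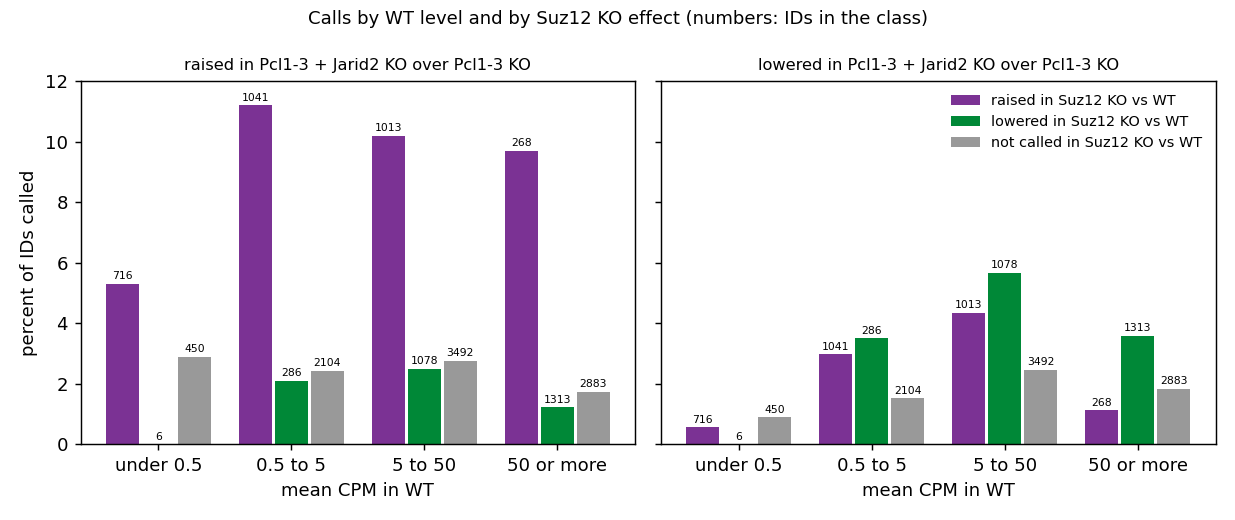
Percent of IDs raised (left) and lowered (right) in Pcl1-3 + Jarid2 KO over Pcl1-3 KO, by mean CPM in WT and by the call in Suz12 KO over WT, with the number of IDs above each bar. The share raised reaches 11.2% among IDs of 0.5 to 5 CPM that rose in Suz12 KO, and in all classes the uncalled IDs stay under 3%.

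A second comparison of cells without and with Jarid2, both lacking Pcl1-3, can be made in libraries of other genotypes. Pcl1-3 + Jarid2 + Aebp2 + Epop KO against Pcl1-3 + Epop KO removes Jarid2 together with Aebp2, and takes its levels from none of the 6 libraries above. In it 1899 IDs rose (13.0% of those tested) and 2007 fell (13.7%), 26.7% together (edgeR quasi-likelihood test). Of the 543 IDs raised in Pcl1-3 + Jarid2 KO over Pcl1-3 KO, 390 rose there too (71.8%, and 20.5% of the 1899) and 12 fell. Of the 375 lowered IDs 252 fell there too (67.2%, and 12.6% of the 2007) and 8 rose. Counting fitted values of any size, 92.6% of raised IDs were higher and 91.2% of lowered IDs were lower there, against 48.7% and 51.2% of all tested IDs. The median log2 fold change there was 1.00 for raised and −0.79 for lowered IDs, against −0.02 over all tested IDs. Across the 14650 IDs, which are not independent replicates, the log2 fold changes of both comparisons had a Pearson r of 0.557 (Spearman 0.536). The pattern was chosen for study after the files had been seen, and the effect of Aebp2 cannot be told apart from that of Jarid2 in the larger knockout. The sample titles do not say whether the larger knockout was derived from the Pcl1-3 + Jarid2 KO cells. Changes shared by descent and changes that follow Jarid2 loss therefore cannot be told apart here.

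Of the named IDs, ENSMUSG00000038518.15 had a log2 fold change of −5.06 ± 0.22 in the larger knockout against Pcl1-3 + Epop KO and ENSMUSG00000104340.1 one of −3.75 ± 0.75, close to their values of −4.98 and −3.67 above (SE; edgeR adjusted p = 7.54e-13 and 0.000921). ENSMUSG00000058328.13 rose, with 68 counts over the 3 Pcl1-3 + Jarid2 + Aebp2 + Epop KO libraries against 3 counts over the 3 Pcl1-3 + Epop KO libraries (edgeR adjusted p = 2.79e-05). ENSMUSG00000001670.13 rose as well, with 61 counts against 2 (edgeR adjusted p = 0.00945). A test of the difference between both effects called 318 of 14650 IDs (2.17%), 171 higher (1.17%) and 147 lower (1.00%) after Jarid2 loss from Pcl1-3 KO cells, and 873 with the replicate block. The total was 206, 209 and 211 when replicate 2 of Pcl1-3 + Jarid2 KO, Pcl1-3 + Jarid2 + Aebp2 + Epop KO or Pcl1-3 + Epop KO was left out. None of the 4 named IDs was among the 318. The fitted log2 difference was 3.16 for ENSMUSG00000058328.13 and 2.80 for ENSMUSG00000001670.13 (edgeR adjusted p = 0.305 and 0.712). They had 0 and 1 counts in Pcl1-3 KO, so the size of their fitted difference is uncertain. For ENSMUSG00000038518.15 and ENSMUSG00000104340.1 the fitted difference was 0.08 each.

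The IDs were then divided by their call in the larger knockout and set beside Suz12 KO. Of the 390 raised in both, 227 rose in Suz12 KO against WT (58.2%) and 24 fell (6.15%). Of the 153 raised IDs not called raised in the larger knockout, 57 rose (37.3%) and 25 fell (16.3%). Of the 252 lowered in both, 96 fell in Suz12 KO (38.1%) and 44 rose (17.5%). Of the other 123 lowered IDs 22 fell (17.9%) and 38 rose (30.9%). Among all tested IDs 20.7% rose and 18.3% fell in Suz12 KO. The shares of 16.3% and 17.9% that fell and 17.5% that rose were thus no higher than over all tested IDs. No library stands on a side of more than 1 of these 3 comparisons, and the difference between the shares was not tested. The IDs raised in both had a median of 9.09 CPM in WT and those lowered in both 26.1 CPM.

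In cells that still have Pcl1-3, the medians of these IDs stayed near 0 after the loss of Jarid2 with Aebp2. Jarid2 + Aebp2 KO against WT raised 331 tested IDs (2.26%) and lowered 312 (2.13%), 4.39% together. Of the 543 raised IDs 31 rose there (5.71%) and 25 fell (4.6%), and of the 375 lowered IDs 30 fell (8.0%) and 5 rose (1.33%). The median log2 fold change was 0.04 for raised and −0.04 for lowered IDs, against 0.01 over all tested IDs, and 54.0% of raised and 54.7% of lowered IDs kept their sign. Leaving out single libraries moved these shares between 48.4% and 58.0% and between 46.8% and 66.9%, on both sides of an even split. The calls there moved more. The share of raised IDs that rose was 1.71% without Jarid2 + Aebp2 KO replicate 3, 2.08%, 3.16% and 2.5% without WT replicates 1, 2 and 3, and 9.06% without Pcl1-3 KO replicate 1. The share of lowered IDs that fell was 5.03% and 1.19% without Jarid2 + Aebp2 KO replicates 1 and 3, and 1.49%, 4.73% and 5.34% without WT replicates 1, 2 and 3. With the replicate block these shares were 14.1% and 13% of the raised and lowered IDs, and 16.3% and 13.6% when low counts were not filtered. Calls over all tested IDs grew with the block too, to 1243 raised and 1038 lowered of 14650, so 2.26% and 2.13% are not its background. For the other settings the share over all tested IDs is not given here. Across the 14650 IDs the Pearson r with the effect in Pcl1-3 KO cells was 0.0234 (Spearman −0.0148).

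The difference between both effects was tested directly. It was past the threshold for 751 IDs (5.13%), of which 410 were higher (2.80%) and 341 lower (2.33%) after Jarid2 loss in Pcl1-3 KO cells than after Jarid2 and Aebp2 loss in WT cells (edgeR quasi-likelihood test). Of the 543 raised IDs 223 were among the 410 and none was among the 341, and of the 375 lowered IDs 132 were among the 341 and none was among the 410. The calls and this difference use the same 6 libraries, which favours those directions. The total was 336, 345, 346, 363, 389, 390, 398 and 480 without Pcl1-3 KO replicate 1, Pcl1-3 KO replicate 3, WT replicate 1, Jarid2 + Aebp2 KO replicate 1, Pcl1-3 + Jarid2 KO replicate 2, Jarid2 + Aebp2 KO replicate 3, Pcl1-3 + Jarid2 KO replicate 3 and WT replicate 2, in that order, and 1190 without Pcl1-3 KO replicate 2. With the replicate block 2222 IDs differed, of which 1063 were higher and 1159 lower, so the larger side turned. Since Aebp2 is lost only in the Jarid2 + Aebp2 KO cells, the presence of Pcl1-3 and the loss of Aebp2 cannot be told apart in this difference.

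ENSMUSG00000038518.15 fell in both settings, with a log2 fold change of −4.34 ± 0.20 in Jarid2 + Aebp2 KO against WT (SE; edgeR adjusted p = 5.26e-12), and the difference of −0.64 ± 0.27 did not pass the test (edgeR adjusted p = 0.171). ENSMUSG00000104340.1 had 3.50, 4.46 and 3.89 CPM in Jarid2 + Aebp2 KO, against 3.22, 5.65 and 6.48 CPM in WT, and did not pass the test there (log2 fold change −0.38 ± 0.40, edgeR adjusted p = 0.622). Its difference of −3.29 ± 0.79 passed (edgeR adjusted p = 0.0186), and no longer did without Pcl1-3 + Jarid2 KO replicate 2 or 3 (0.0613 and 0.0549). ENSMUSG00000058328.13 rose in Jarid2 + Aebp2 KO, to 10.5 to 13.0 CPM against 2.62 to 3.07 CPM in WT (log2 fold change 2.06 ± 0.33, edgeR adjusted p = 0.00243).

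**Figure D4:**
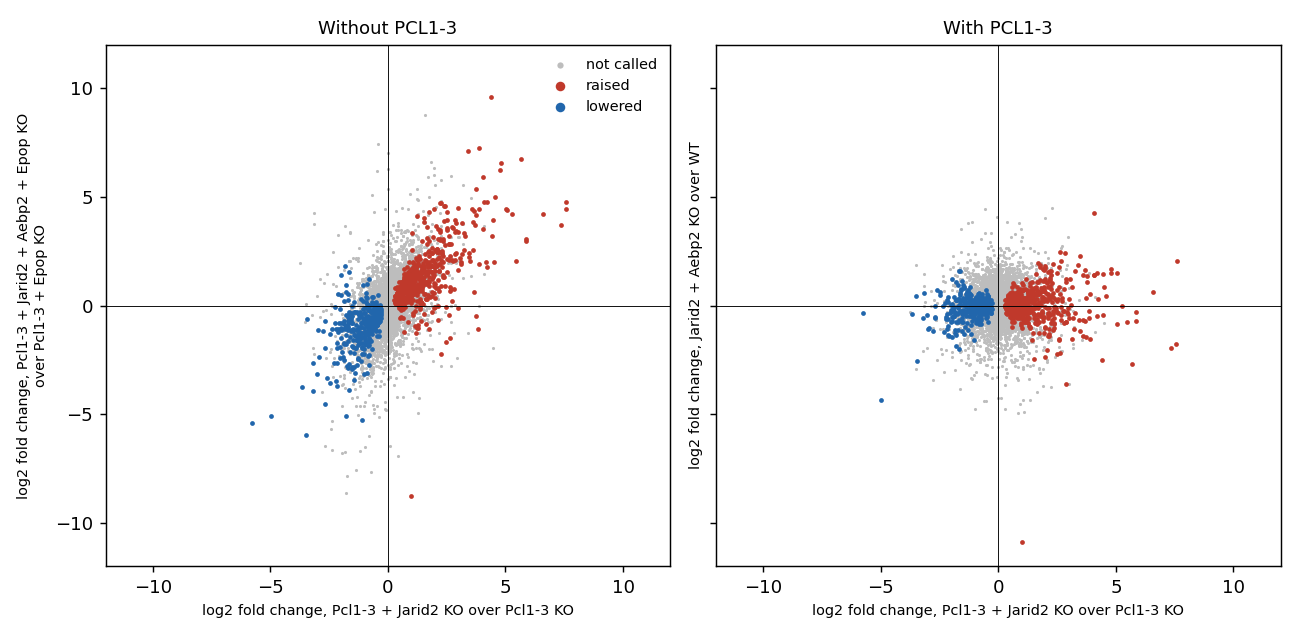
Log2 fold change of each ID in Pcl1-3 + Jarid2 KO over Pcl1-3 KO (horizontal) against that in Pcl1-3 + Jarid2 + Aebp2 + Epop KO over Pcl1-3 + Epop KO (left) and in Jarid2 + Aebp2 KO over WT (right). The coloured called IDs lie along the diagonal on the left (r = 0.557 over all IDs) and spread around 0 on the right (r = 0.0234).

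The levels of the called IDs were followed through all 8 genotypes as the median difference from the WT mean on the log2 CPM scale. In the Pcl1-3 + Jarid2 KO libraries the raised IDs stood 0.65, 0.79 and 0.90 above WT, and in the Pcl1-3 KO libraries −0.33, −0.13 and −0.19 from it. The lowered IDs stood at −0.61, −0.77 and −0.74 in Pcl1-3 + Jarid2 KO, and at 0.15, −0.03 and 0.03 in Pcl1-3 KO. Libraries of these genotypes chose both lists, which favours the gap between their medians. Among the genotypes on neither side of the comparison, Pcl1-3 + Jarid2 + Aebp2 + Epop KO had medians of 0.83 to 0.90 for raised and −0.76 to −0.69 for lowered IDs. Pcl1-3 + Jarid2 + Aebp2 KO had 0.31 to 0.55 and −0.51 to −0.35. Suz12 KO had 0.56 to 0.65 for raised IDs, but only −0.13 to −0.01 for lowered IDs. Single lowered IDs moved both ways there. Against WT 118 of the 375 fell in Suz12 KO (31.5%) and 82 rose (21.9%), beside 18.3% and 20.7% of all tested IDs. Jarid2 + Aebp2 KO had −0.08 to 0.12 and −0.16 to 0.06, and Pcl1-3 + Epop KO −0.20 to −0.06 and −0.06 to −0.01. Over all tested IDs the medians lay between −0.03 and 0.02 in every library.

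**Figure D5:**
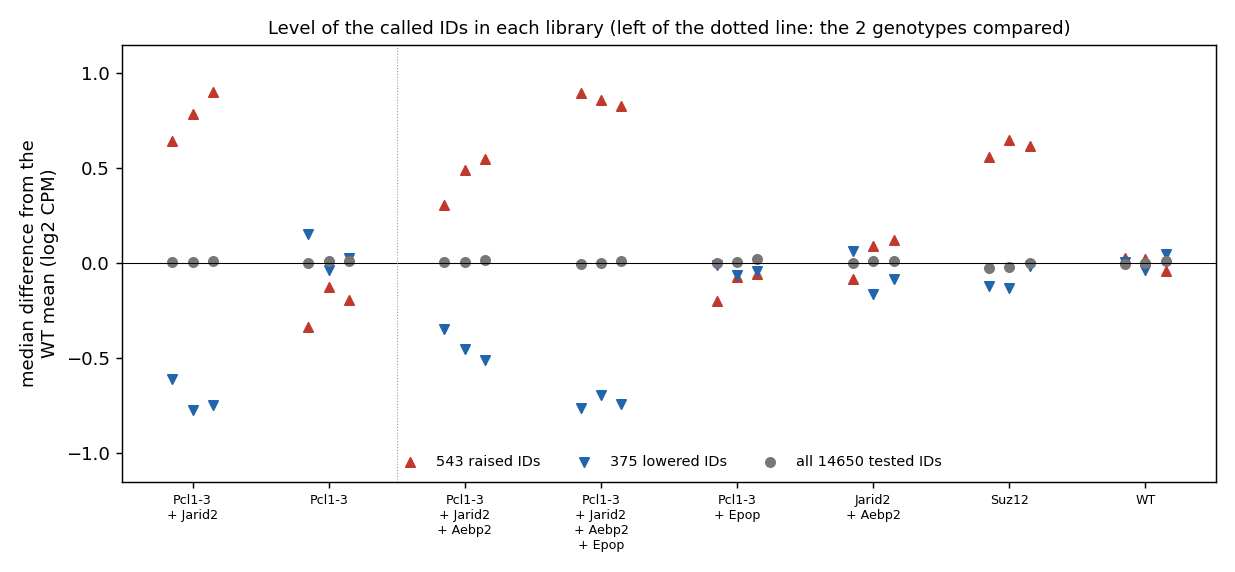
Median difference from the WT mean (log2 CPM) of the 543 raised, 375 lowered and all tested IDs in each of the 24 libraries, 3 points per genotype, with the 2 genotypes compared left of the dotted line. The medians of both lists move in the 3 genotypes that lack Pcl1-3 and Jarid2, of which Pcl1-3 + Jarid2 KO was used to choose the lists. In Suz12 KO the median of the raised IDs moves and that of the lowered IDs stays near 0.

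How the called IDs stood when Pcl1-3 was lost and Jarid2 kept was read from Pcl1-3 + Epop KO against WT, 2 genotypes on neither side of the comparison. Epop is lost in these cells too, so its effect cannot be told apart from that of Pcl1-3 loss. In Pcl1-3 + Epop KO 577 IDs rose (3.94%) and 538 fell (3.67%), 7.61% together. With the replicate block 1448 rose and 1282 fell, and the shares below are from the fit without it. Of the 543 raised IDs 75 fell in Pcl1-3 + Epop KO (13.8%) and 34 rose (6.26%), and of the 375 lowered IDs 46 fell (12.3%) and 23 rose (6.13%). Seen from the other side, 75 of the 538 IDs lowered in Pcl1-3 + Epop KO were raised in Pcl1-3 + Jarid2 KO (13.9%) and 46 were lowered (8.55%), against 3.71% and 2.56% of all tested IDs. Of the 577 raised ones 34 were raised (5.89%) and 23 lowered (3.99%) in Pcl1-3 + Jarid2 KO, and none of these differences was tested. ENSMUSG00000058328.13 was among the 75, with 3 counts over the Pcl1-3 + Epop KO libraries against 95 counts over the WT libraries (edgeR adjusted p = 2.64e-05).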

How the data were processed

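Per the labels' protocols, total RNA was made into libraries with a TruSeq v2 kit. For each library the authors deposited 1 file of read counts, whole numbers for each Ensembl gene ID. STAR, HTSeq and mm10 are named, without versions, in the submitters' processing notes; no source used here gives the strand setting, so overlapping and near-identical genes are uncertain. Of 55450 IDs, 24056 had no count in any of the 24 libraries. IDs passing filterByExpr (14650) were TMM-scaled and fitted together over 24 libraries, 1 mean per genotype, with robust dispersions (edgeR 4.0.16, R 4.3.3; DESeq2 1.42.0 as an alternative), after a test on simulated data. CPM are TMM-scaled; log2 CPM used a prior count of 2. No 2 libraries of a genotype agreed within sampling noise: their counts varied at least 6.25 times as much as sampling alone gives. Same-numbered Pcl1-3 + Jarid2 KO and Pcl1-3 KO libraries deviated together (r = 0.355, 0.250 and 0.447 across IDs for numbers 1 to 3; differently numbered ones −0.361 to 0.004), so the block fit is given beside counts of calls that it moves by over 1.5 times. Same-numbered Pcl1-3 + Jarid2 + Aebp2 + Epop KO and Pcl1-3 + Epop KO libraries did too (0.144 to 0.225), and 1 Jarid2 + Aebp2 KO and WT pair did not reach 0.1. Deviations were from each genotype's mean, so a positive r for same numbers lowers that for different numbers by construction.

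Named IDs are the 2 with the highest and 2 with the lowest log2 fold change among called IDs with no overlap between libraries and at least 1 CPM in one genotype. The comparison, the lists and the rules were chosen with earlier results of these data known. No source used here pairs IDs with symbols or positions, so the planned results for targeted genes, gene lists, cell type markers, peaks, chromosomes and promoters could not be run, and the 3 deposited peak lists were not used. The comparisons with Pcl1-3 + Epop KO and the split by Jarid2 label were added after the files had been seen.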

Additional observations from a re-analysis of the deposited data

Results flagged for a closer look

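Changes in Pcl1-3 + Jarid2 KO against Pcl1-3 KO were set by a direct test against those of 2 other comparisons, both of which also remove Aebp2, so that background and Aebp2 loss cannot be told apart. For 751 IDs the change of Pcl1-3 + Jarid2 KO against Pcl1-3 KO differed from that of Jarid2 + Aebp2 KO against WT, and for 318 IDs it differed from that of Pcl1-3 + Jarid2 + Aebp2 + Epop KO against Pcl1-3 + Epop KO (edgeR quasi-likelihood test, Benjamini-Hochberg adjusted p under 0.05, 14650 IDs tested).

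In the first contrast 3 named IDs differed, with fitted log2 differences of 5.52 for ENSMUSG00000058328.13 (edgeR adjusted p = 0.0051), 9.34 for ENSMUSG00000001670.13 (0.00537) and -3.29 for ENSMUSG00000104340.1 (0.0186). The first had 0 counts and the second 1 count in Pcl1-3 KO, so the size of their fitted difference depends on the prior count and is no bound. No group held more than 3 libraries, so single libraries were not tested as outliers.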

How the results depend on the processing

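No called ID changed direction in any of the 28 other settings in which it was tested (47 of the 918 were not tested with only the 2 genotypes, 14 not under the stricter filter), and the share of calls that were raised, 59.2% here, ran from 52.4% to 67.1%. Their number was less stable. With the replicate number as a block 1949 IDs were called (1079 raised, 870 lowered), with the block and only the 2 genotypes compared 2807 (1471 and 1336), and with no filter on low counts 580 fell. Leaving out each of the 6 libraries in turn gave 414 to 952 calls (267 to 533 raised, 147 to 419 lowered). DESeq2 called 1231, RLE factors 914, the stricter filter 919 and a fit of only the 6 libraries 709. The difference from Jarid2 + Aebp2 KO was called for 1170 IDs by DESeq2, 1435 with no filter and 2222 with the replicate block, (1063 higher, 1159 lower), and for 336 to 1190 when 1 of 12 libraries was left out. The difference from the larger knockout was called for 536, 682 and 873 IDs in the same settings, and for 206 to 419 with a library left out. The share of raised IDs also raised there was 67.2% with no filter and 62.1% to 80.9% with a library left out, and that of lowered IDs 59.9% to 76.2%. With the block Jarid2 + Aebp2 KO against WT had 1243 raised and 1038 lowered IDs, and Pcl1-3 + Epop KO against WT 1448 and 1282, although not every pair of numbers deviated together there. The cause of these shifts was not tested. The named IDs kept their calls for Jarid2 loss in every setting run. Alternatives planned for gene lists, peaks, chromosomes and promoters were not run, for want of symbols. Low counts limit IDs under 0.5 CPM, where the median standard error was 0.65.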
